A study of Mus musculus with 2 samples.

Results

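The genes of the p53 pathway, apoptosis and senescence were compared between 2 libraries of mouse chondrocytes. The list of 43 genes was drawn up by gene name: the tumour suppressor Trp53 and its regulators, p53 target genes, the BCL2 family, caspases with their direct regulators, and inhibitors of the cell cycle. Of these, 42 were found by symbol among the 13138 genes of the deposited table, and all 42 had a mean of at least 50 on the linear scale, the minimum used here, as did 12809 genes in all. Bik was not analysed here.

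Both libraries came from primary chondrocytes of the strain C57Bl/6, grown ex vivo as micromass cultures, high-density drops in which the cells form cartilage-like nodules. The culture labelled Cre received an adenovirus carrying Cre recombinase, which removes DNA between loxP sites, and has the genotype label hdac3-knockout. The culture labelled GFP received an adenovirus with green fluorescent protein as the control and has the label wild-type. Each group is 1 library, and the labels give neither the age of the mice nor how many animals or dishes were pooled, so every difference below compares these 2 libraries, with no replicate check and no p-value. The series was set up to find genes that are higher or lower in chondrocytes lacking Hdac3, a histone deacetylase.

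The p53 protein is a transcription factor that is held at a low level by the ubiquitin ligase Mdm2 and its partner Mdm4, and that accumulates after DNA damage or other stress. It then switches on genes that arrest the cell cycle, repair DNA or promote death. In the mitochondrial route to apoptosis, BH3-only proteins free or activate Bax and Bak1, which open the outer mitochondrial membrane, while Bcl2, Bcl2l1 and Mcl1 hold them back. Released cytochrome c then assembles with Apaf1 to activate Casp9, and Xiap blocks that step. Another group of caspases, among them Casp1 and Casp4, works in inflammation and not in this route. Cells that stop dividing for good become senescent, a state tied to Cdkn1a and Cdkn2a and, in cartilage, to ageing and osteoarthritis.

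The promoters of 4 genes are shown as examples, chosen in part by their differences. Casp4 had the widest difference of the 42 genes, and Casp1, its neighbour on chromosome 9, is set beside it. Bax and Sesn1 are p53 targets that differed in opposite directions, although Bax lay within the middle 90% of genes of like level. Each line gives 250 bases before to 50 after an annotated transcription start from RefSeq on GRCm38.p6, 5′ to 3′ on the strand of the gene. For a gene with several start sites, the window with the most matches to the motif sought was chosen. The matches shown thus partly reflect that choice. The Sesn1 window lies inside the gene, which begins at base 41809935. Capitals mark a match to the NF-kappaB site in Casp4 and to a p53 half-site in Bax and Sesn1.
Casp4, chr9:5308599-5308898, plus strand: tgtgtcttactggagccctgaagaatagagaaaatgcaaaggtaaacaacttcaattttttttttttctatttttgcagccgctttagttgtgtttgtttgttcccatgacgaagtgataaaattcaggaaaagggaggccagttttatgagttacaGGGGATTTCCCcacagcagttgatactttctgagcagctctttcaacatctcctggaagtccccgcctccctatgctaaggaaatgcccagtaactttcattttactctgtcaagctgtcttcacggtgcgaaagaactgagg
Casp1, chr9:5298267-5298566, plus strand: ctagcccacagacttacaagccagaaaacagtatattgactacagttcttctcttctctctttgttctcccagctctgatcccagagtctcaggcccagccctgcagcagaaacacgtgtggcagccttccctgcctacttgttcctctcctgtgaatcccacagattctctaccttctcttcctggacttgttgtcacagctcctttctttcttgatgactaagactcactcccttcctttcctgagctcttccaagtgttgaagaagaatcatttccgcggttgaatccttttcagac
Bax, chr7:45466849-45467148, minus strand: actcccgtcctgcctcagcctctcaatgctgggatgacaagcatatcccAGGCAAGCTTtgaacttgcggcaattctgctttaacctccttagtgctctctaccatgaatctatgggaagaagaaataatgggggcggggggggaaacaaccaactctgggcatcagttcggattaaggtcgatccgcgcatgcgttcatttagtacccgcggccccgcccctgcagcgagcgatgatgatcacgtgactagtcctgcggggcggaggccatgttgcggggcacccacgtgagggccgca
Sesn1, chr10:41887189-41887488, plus strand: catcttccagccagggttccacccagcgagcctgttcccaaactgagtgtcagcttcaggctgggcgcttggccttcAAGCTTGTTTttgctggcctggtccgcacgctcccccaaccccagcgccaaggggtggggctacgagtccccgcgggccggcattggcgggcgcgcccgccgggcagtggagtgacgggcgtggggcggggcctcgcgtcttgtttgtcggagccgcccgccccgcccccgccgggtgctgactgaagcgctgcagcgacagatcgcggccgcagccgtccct

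Of the 42 genes, 37 had at least 1 such promoter window in the RefSeq table, 54 windows in all, some of which overlap within a gene. A search of both strands used the consensus sequences of the NF-kappaB site, the p53 half-site and the core of the interferon-stimulated response element, together with the STAT-binding GAS element TTCNNNGAA, the AP-1 site TGANTCA and the C/EBP site TTGCNNAA. The NF-kappaB site was found in 4.51% of all 32851 windows and in 11.1% of the 54, in Bbc3, Bcl2l1, Bmf, Casp4 and Trp53. In the Casp4 window shown it began 93 bases before the start site, as the overlapping matches GGGGATTTCC and GGGATTTCCC. None of the 6 motifs was matched in the Casp1 window. The interferon-response core was in 3.44% of all windows and 1.85% of the 54, the GAS element in 8.30% and 0%, the AP-1 site in 7.81% and 1.85%, and the C/EBP site in 10.8% and 13%. A p53 half-site was found in 8.36% of all windows and in 20.4% of the windows of these genes, where it marked 10 genes. They were Aen, Bax, Bmf, Ccng1, Cdkn1a, Ei24, Gadd45a, Mdm2, Sesn1 and Trp53, 8 of them among the 15 p53 targets with a window. A match describes letters in the window and shows no binding. Besides Casp4, the genes with an NF-kappaB match differed little between Cre and GFP (log2). Trp53 differed by 0.17, Bmf by -0.03, Bbc3 by -0.06 and Bcl2l1 by -0.16. A link between motif and difference was not tested.

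Expression is given as log2 normalized counts, as the authors deposited them, and all differences are Cre minus GFP on that log2 scale. Hdac3 itself had a log2 value of 10.68 in Cre and 10.69 in GFP, so the total over the gene gave no check of the knockout label. Low counts were probably shrunk by the transform, and depth is unknown. Chondrocyte identity was plain in both libraries, with the aggrecan gene Acan at 16.29 in Cre and 17.12 in GFP. All 11 measured chondrocyte markers were lower in the library labelled Cre, with a median of -0.54, and Matn3, Acan, Hapln1 and Matn1 differed most, by -0.89, -0.83, -0.77 and -0.66. Markers of macrophages, cells that strongly express inflammatory caspases, were higher in 11 of 14, with a median of 0.26. The widest differences were 1.08 for Emr1, 1.04 for Cd14, 0.91 for Lyz1 and 0.84 for Lyz2. Mrc1, a macrophage mannose receptor gene named after its value was seen, went the other way, at 10.35 in Cre and 11.08 in GFP. The summed linear level of the markers was 52329.9 in Cre and 33771.8 in GFP. Lyz2 alone made up most of that gap, and without it the sums were 23347 in Cre and 17574 in GFP. The marker levels ran from Aif1 at 6.31 and 6.04 to Lyz2 at 14.82 and 13.98. The lowest mean log2 value deposited for any gene was 5, so a measured marker could not have been near 0. The pan-leukocyte gene Ptprc, also named after its value was seen, was at 9.94 and 9.68. Of 9 fibroblast markers 5 were higher in Cre, with a median of 0.17. Lum, Dcn, Pdgfra and Col3a1 differed most, by 0.65, 0.47, 0.43 and 0.35. The other 4 were lower, among them Col1a2 by -0.32 and Postn by -0.30, both named after their values were seen. In such bulk samples more cells of a type and more RNA per cell cannot be told apart.

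As a whole, the p53, apoptosis and senescence genes differed little between the libraries. The median difference was 0.11 over the 42 genes, with quartiles of -0.03 and 0.17, beside a median of -0.00041 and quartiles of -0.09 and 0.09 over all 12809 genes. There were 28 genes above 0, a share of 66.7%, beside 49.9% of all genes. One gene, Casp4, was at least 2-fold higher in Cre, where 0.734% of all genes were, and 0 were 2-fold lower, where 0.0703% of all genes were. At 1.5-fold the counts were again 1 and 0, beside 2.25% and 0.952% of all genes.

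The spread of differences varied with level. Its standard deviation was 0.15 below a mean log2 value of 7 and 0.49 above 13. Between these it hardly changed, at 0.23 to 0.25. Each gene was therefore also set beside the 500 genes nearest to it in mean level. Above the 95th percentile of those neighbours lay Casp4, Bid, Casp6 and Btg2, 4 genes where 5.15% of all genes lay there. Below the 5th percentile lay Sesn1 and Bcl2, 2 genes where 5.17% of all genes did. The other 36 genes lay within the middle 90% of genes of like level, so most of the class counts that follow describe differences that many other genes of the same abundance also had.

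**Figure D1:**
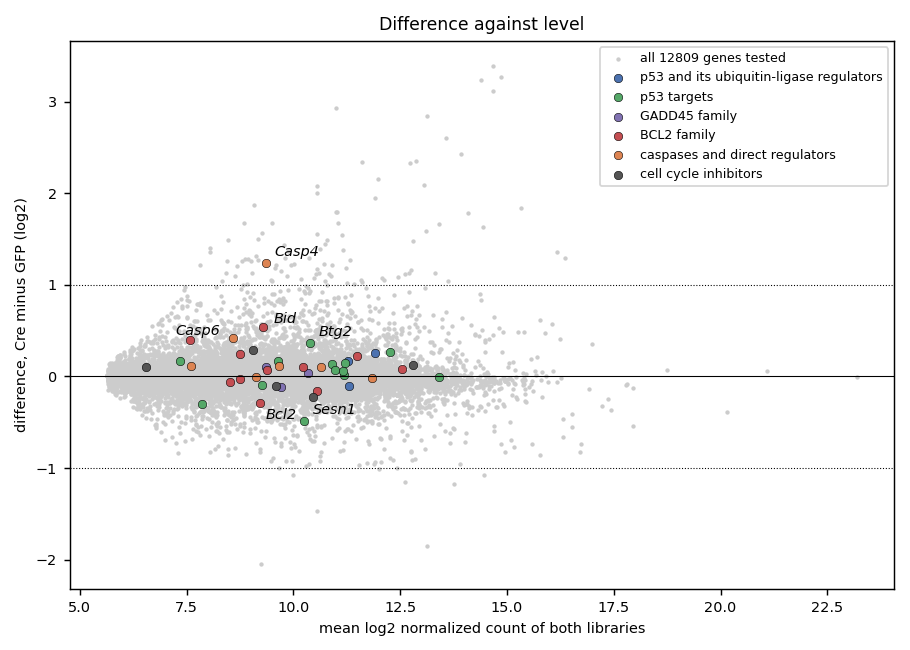
Difference between the libraries (Cre minus GFP, log2) against the mean log2 normalized count, with 1 library per group. Grey points are all 12809 genes tested, coloured points the 42 genes by class, and dotted lines mark 2-fold. Casp4 is the one coloured point beyond a dotted line, and the 6 genes outside the middle 90% of their neighbours are named.

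p53 itself and its negative regulators differed by small amounts. Trp53 was at 11.35 in Cre and 11.19 in GFP, a difference of 0.17. Mdm2, the ubiquitin ligase that degrades p53 and is itself a p53 target, was at 12.04 in Cre and 11.78 in GFP, a difference of 0.26. Mdm4, its partner, which blocks p53 activity, went the other way, at 11.26 in Cre and 11.37 in GFP. All 3 lay within the middle 90% of genes of like level, Trp53 at percentile 90.6 and Mdm2 at percentile 93.8 of them. Per kilobase of exon, the linear level of Mdm2 was 1.28 times that of Trp53 in Cre and 1.20 times in GFP, and it was 5.0 and 3.89 times that of Mdm4.

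p53 target genes lay on both sides of 0 and none reached 1.5-fold. Of the 13 targets without another role below, 9 were higher in Cre, with a median of 0.08. Across all classes, 15 of 20 targets were higher, a share of 75% beside 49.9% of all genes. Their median was 0.12, beside an upper quartile of 0.09 over all genes, and their range ran from -0.49 for Sesn1 to 0.40 for Pmaip1. One of the 20 lay above and 1 below the middle 90% of genes of like level. Those were Btg2 and Sesn1, and the other 18 stayed within it.

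Btg2, an antiproliferative gene induced by p53 and by growth signals, was the highest of the 13. It was at 10.57 in Cre and 10.21 in GFP, a 1.28-fold difference at percentile 95.8 of its neighbours. Trp53inp1, which encodes a nuclear protein that promotes p53 phosphorylation, was at 12.39 and 12.12, a difference of 0.27 at percentile 91.6. Eda2r, a receptor of the TNF receptor superfamily, Plk3, a stress-responsive polo-like kinase, and Phlda3, an inhibitor of AKT, were higher by 0.17, 0.17 and 0.15. Aen, a nuclease of apoptosis, was higher by 0.14, and the kinase gene Plk2 and the RNA-binding protein gene Zmat3 by 0.08 and 0.06. Ei24, an endoplasmic reticulum protein gene, differed by 0.02.

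Sesn1 was the lowest of the 42 genes. It encodes sestrin 1, a leucine-sensing inhibitor of mTOR complex 1, and lies at chr10:41809935-41908424 (GRCm38, plus strand). Its log2 value was 10.01 in Cre and 10.50 in GFP, 1.40-fold higher in GFP, at percentile 1.20 of its neighbours and rank 204 from the bottom of 12809 genes. Its relative Sesn2, also a stress-induced sestrin and named after its value was seen, was at 10.46 and 10.59. Perp, a desmosomal membrane protein gene of p53-dependent death, was at 7.71 in Cre and 8.01 in GFP, at percentile 7.20 of its neighbours. Rrm2b, a ribonucleotide reductase subunit for DNA repair, differed by -0.09.

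Ccng1, the cyclin G1 gene and a standard p53 reporter, was the most abundant of the 42 genes per kilobase of exon. Its log2 value was 13.41 in both libraries, and its difference of -0.00063 is too small for its sign to be read, since scaling to equal totals turned it. Among the GADD45 genes, which encode small stress sensors that bind MAP3 kinases and cell cycle proteins, the p53 target Gadd45a differed by 0.04. Gadd45b, an NF-kappaB-induced member, was at 9.42 in Cre and 9.31 in GFP, and Gadd45g was at 9.65 and 9.77. None of these 3 left the middle 90% of genes of like level.

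**Figure D2:**
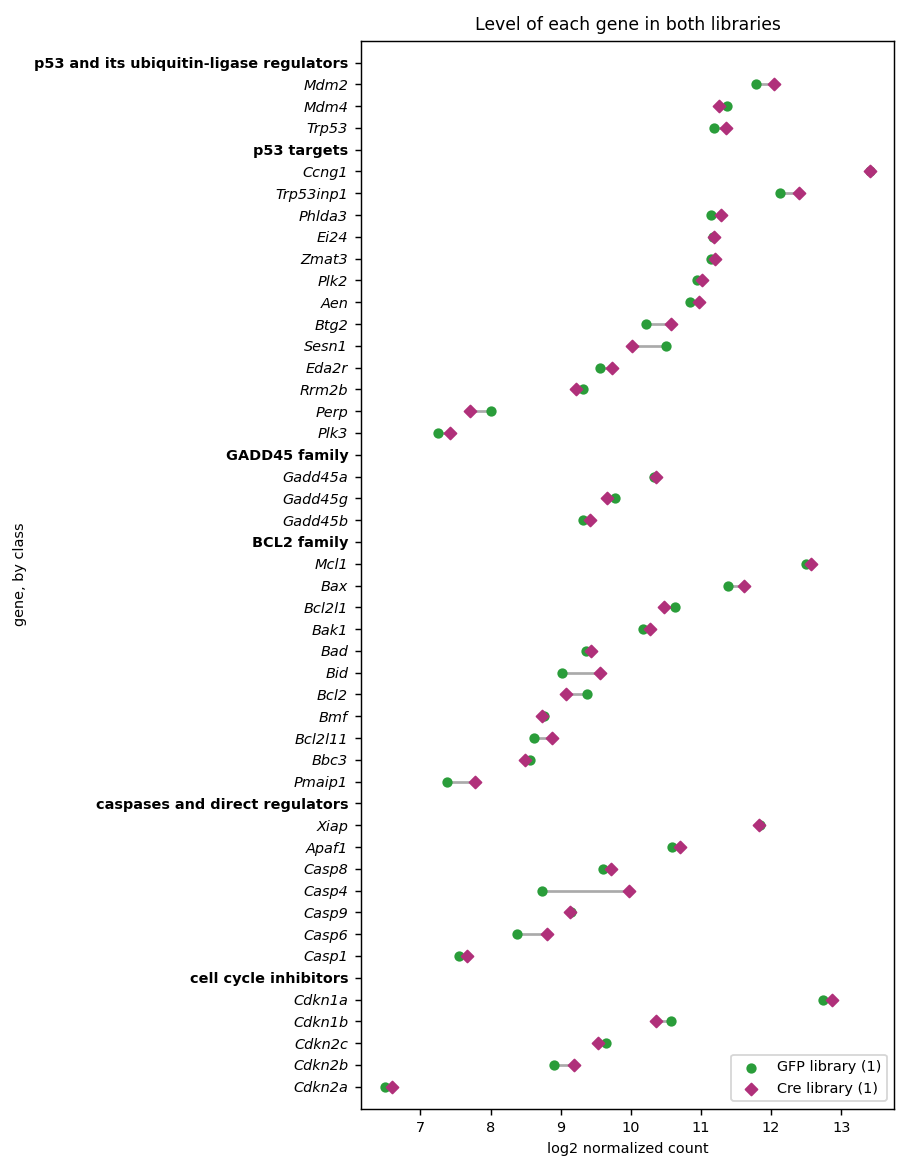
Log2 normalized count of each gene in the library labelled GFP (green circles) and the library labelled Cre (magenta diamonds), 1 library each, grouped by class and joined by a line. Most pairs almost coincide, as for Ccng1 at 13.41 in both, while Casp4 is the one widely separated pair.

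In the BCL2 family, 7 of 11 measured genes were higher in Cre, with a median of 0.08, and none reached 1.5-fold. By role, the pro-survival genes had a median of -0.16 over 3 genes, the pore-forming effectors 0.16 over 2 and the BH3-only genes 0.16 over 6. These are medians of few genes, most of them within the spread of genes of like level, and the difference between roles was not tested. The pro-survival genes were not uniform, since Mcl1 was higher in Cre, as was Bcl2l2 outside the list of 43.

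Bid had the widest difference in the family. It encodes a BH3-only protein that caspase 8 cleaves to carry the death receptor signal to mitochondria, and lies at chr6:120891930-120916853 (minus strand). Its log2 value was 9.57 in Cre and 9.02 in GFP, a 1.46-fold difference at percentile 97.8 of its neighbours. The exons of Bid overlap those of Bcl2l13 on the opposite strand by 628 bases, and Bcl2l13, named for this overlap, was at 10.73 and 10.62. Reads in that overlap cannot be assigned without strand information.

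Pmaip1, the p53-induced BH3-only gene known as Noxa, was at 7.78 in Cre and 7.37 in GFP, a 1.32-fold difference at percentile 93.4. Bcl2l11, which encodes the BH3-only protein Bim, was at 8.87 and 8.63. Bbc3, the p53-induced BH3-only gene known as Puma, was at 8.50 in Cre and 8.56 in GFP. Thus the p53-induced BH3-only genes lay on opposite sides of 0, both within the middle 90% of their neighbours. Bad, which is kept inactive by growth factor signalling, differed by 0.07 and Bmf, which is tethered to the cytoskeleton, by -0.03.

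The effector gene Bax, also a p53 target, was at 11.61 in Cre and 11.38 in GFP, at percentile 93.6 of its neighbours. Its relative Bak1 was at 10.28 and 10.18. Both effectors were thus higher in Cre by small amounts.

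Bcl2, the founding pro-survival gene, was at 9.08 in Cre and 9.37 in GFP, 1.22-fold higher in GFP and at percentile 3.20 of its neighbours. It lies at chr1:106538178-106714274 (minus strand). Bcl2l1, whose main product Bcl-xL keeps chondrocytes alive, was at 10.47 and 10.63. Mcl1, which encodes a short-lived pro-survival protein, was at 12.57 in Cre and 12.49 in GFP. Mcl1 was the most abundant of the pro-survival genes per kilobase of exon, with a linear level 30.2 times that of Bcl2 in Cre and 23.3 times in GFP. Per kilobase, Bax was at 33.5 times the level of Bcl2 in Cre and 23.5 times in GFP, and at 6.38 and 4.90 times the level of Bcl2l1. Summed over the pro-survival genes, the linear level was 8064 in Cre and 8011 in GFP, since the slightly higher Mcl1 offset the lower Bcl2 and Bcl2l1.

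Among the caspases and their direct regulators, the inflammatory caspase Casp4 stood apart and the genes of the apoptosome were close to level. Of 7 genes, 5 were higher in Cre, with a median of 0.11, and 2 lay above the middle 90% of genes of like level. The mean of the class was 0.28, set by Casp4.

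Casp4 encodes mouse caspase 11, which binds bacterial lipopolysaccharide in the cytosol and cleaves gasdermin D, and lies at chr9:5308828-5336783 (plus strand). Its log2 value was 9.97 in Cre and 8.73 in GFP, a 2.36-fold difference. That placed it 54th from the top of 12809 genes and at percentile 99.8 of genes of like level. Macrophage markers were also higher in Cre, as given above, and their part in this value was not tested.

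The neighbours of Casp4 on the chromosome differed far less. Casp1, the interleukin-1-converting caspase of inflammasomes, ends 1562 bases before Casp4 begins and was at 7.67 in Cre and 7.55 in GFP, at percentile 73.8 of its neighbours in level. Casp12, named for its position, begins 8646 bases after Casp4 ends and was at 10.93 in Cre and 11.06 in GFP. These 3 caspase genes are similar copies, and the way reads with several alignments were counted is not given in the sources used here. Per kilobase of exon, Casp4 was at 0.912 times the linear level of Casp1 in GFP and 1.99 times in Cre.

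Casp6, an executioner caspase that also cleaves lamin A, was at 8.80 in Cre and 8.38 in GFP, a 1.34-fold difference at percentile 97.0. Casp8, the initiator of death receptor signalling, was at 9.72 and 9.61. Casp9, the initiator of the mitochondrial route, differed by -0.01, its scaffold Apaf1 by 0.11 and the caspase inhibitor gene Xiap by -0.02. Of the 5 caspases on the list, Casp4 and Casp6 were thus the ones outside the spread of genes of like level.

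**Figure D3:**
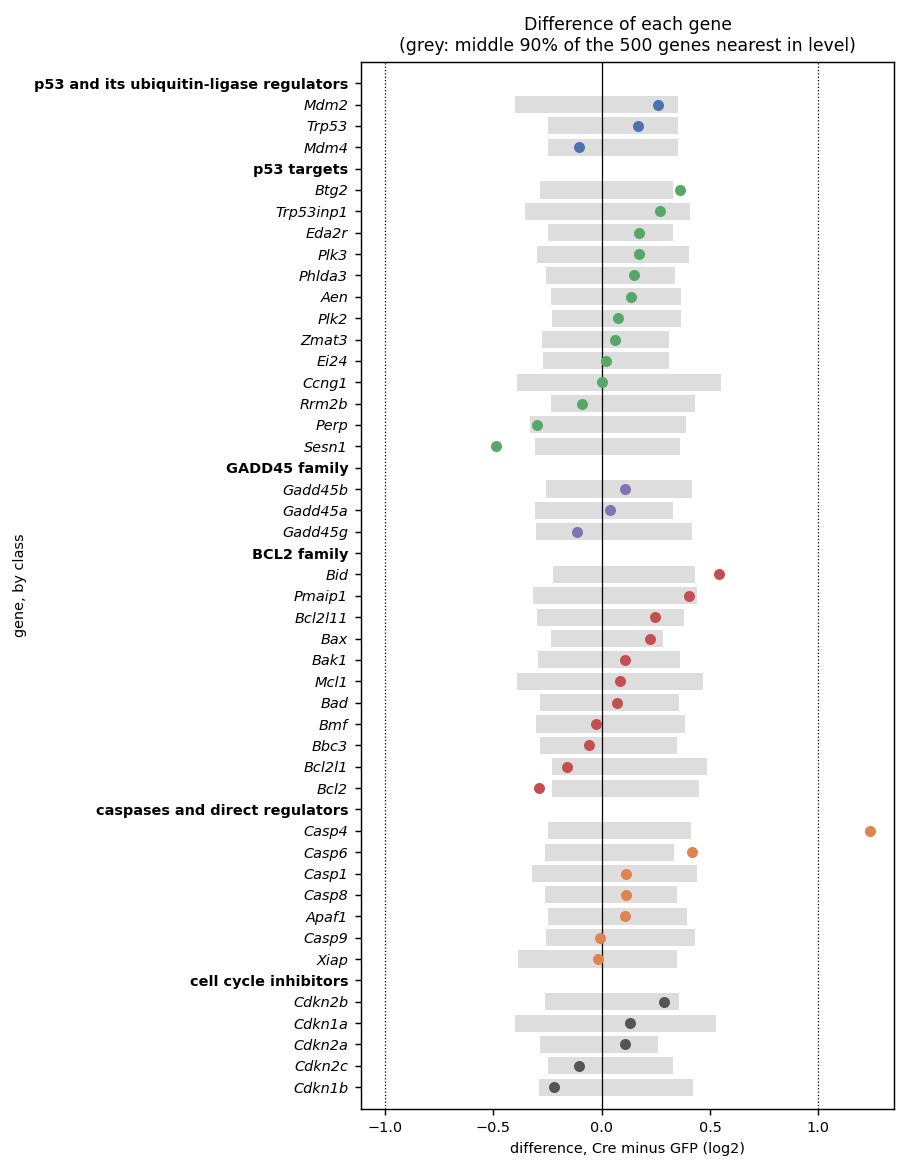
Difference of each gene (coloured point, Cre minus GFP, log2) by class, with the 5th to 95th percentile of the 500 genes nearest in mean level (grey bar) and 2-fold (dotted lines), 1 library per group. Casp4, Bid, Casp6 and Btg2 lie to the right of their bars and Sesn1 and Bcl2 to the left.

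The cell cycle inhibitors that mark senescence were close to level, with 3 of 5 higher in Cre, a median of 0.11 and 0 outside the middle 90% of genes of like level. The median rests on few genes: it was 0.012 over 4 genes at a minimum 10 times higher, and the mean over all 5 was 0.039. Cdkn1a, which encodes p21, the main p53-induced inhibitor of cyclin-dependent kinases, was at 12.86 in Cre and 12.73 in GFP, a difference of 0.13 at percentile 86.6. It was the second most abundant of the 42 genes per kilobase. Cdkn1b, which encodes its relative p27, was at 10.35 in Cre and 10.57 in GFP, at percentile 8.60. The related genes Cdkn1a and Cdkn1b thus lay on opposite sides of 0.

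Cdkn2a encodes both p16 and the p53 activator ARF from different first exons, which a total per gene cannot tell apart. It had the lowest log2 values of the 42 genes, 6.60 in Cre and 6.50 in GFP. Per kilobase of exon, Cdkn1a was at 25.3 times the linear level of Cdkn2a in Cre and 24.9 times in GFP. Cdkn2b, the adjacent p15 gene, which TGF-beta induces, was at 9.19 and 8.91, a 1.22-fold difference at percentile 93.4. Cdkn2c, which encodes p18, was at 9.54 in Cre and 9.64 in GFP. The INK4 genes therefore showed small differences in both directions.

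Further genes of the same pathways were examined from lists drawn from general knowledge, with earlier results of these data known. In each, counts of genes 2-fold apart were read beside 0.734% higher and 0.0703% lower among all genes. Of 37 other p53 targets, 26 were higher in Cre, with a median of 0.11, close to that of the 42 genes. Dram1, a lysosomal gene of p53-induced autophagy, was at 11.03 in Cre and 9.95 in GFP, the one member past 2-fold, at 2.11-fold. The death receptor gene Fas was at 10.18 and 9.32, the mTOR inhibitor gene Ddit4 at 11.69 and 10.88, and the antiproliferative gene Btg1 at 13.20 and 12.70. Ddit4 also responds to hypoxia and Fas to cytokines. Of the 37, 11 were lower in Cre. The p53-induced phosphatase gene Ppm1d and the DNA repair gene Ddb2 differed by 0.0023 and 0.0066, both named after their values were seen. What set the levels of these targets was not tested.

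Death receptor and necroptosis genes were higher in Cre in 11 of 12 cases, 91.7% beside 49.9% of all genes, with a median of 0.16. Of the 12, 4 lay above the middle 90% of genes of like level, where 5.15% of all genes did. None reached 2-fold. Fas was 1.81-fold higher, the TNF receptor adaptor gene Traf2 1.37-fold, the necroptosis effector gene Mlkl 1.32-fold and the TNF receptor gene Tnfrsf1a 1.29-fold. Fas is counted in this list and among the p53 targets.

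Partners of Casp1 and Casp4 in inflammasomes and pyroptosis, the lytic death they drive, were higher in 7 of 10, with a median of 0.12. Gsdmd, the pore-forming substrate of caspase 11, was at 9.0 in Cre and 8.48 in GFP, at percentile 97.0. The sensor gene Nlrp3 was at 7.76 and 7.28 and Ninj1, needed for membrane rupture, at 11.90 and 11.56. These 3 lay above the middle 90% of genes of like level. The mitotic kinase gene Nek7, which NLRP3 requires, was lower, at 11.16 and 11.38. The adaptor gene Pycard, at 8.18 and 8.19, and the cytokine gene Il18, at 7.82 and 7.77, were close to level and were named after their values were seen.

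Among 12 other caspases and inhibitors of apoptosis, 9 were higher in Cre, with a median of 0.08. Birc3, an NF-kappaB-induced inhibitor of apoptosis gene, was 1.91-fold higher at 10.15 in Cre and 9.22 in GFP. Its relative Birc2 and the caspase 8 inhibitor gene Cflar were 1.26-fold and 1.27-fold higher, and the adaptor gene Cradd was at 7.48 and 7.62. Of 17 other BCL2 family and mitochondrial death genes, 11 were higher, with a median of 0.05. Bnip3 and Bnip3l, hypoxia-induced genes of mitophagy, led with 1.60-fold and 1.46-fold, followed by the nuclease gene Endog and the pro-survival gene Bcl2l2 at 1.12-fold and 1.10-fold. Other cell cycle inhibitors were evenly split, with 5 of 10 higher, a median of 0.02 and a mean of -0.0062. Cdkn1c, which encodes p57, an inhibitor needed for chondrocytes to leave the cell cycle, was at 12.68 in Cre and 13.47 in GFP, 1.73-fold higher in GFP. Btg1 and the INK4 gene Cdkn2d differed by 0.50 and 0.15, and the antiproliferative gene Tob2 by 0.10.

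Genes tied to senescence divided by kind. Among 15 nuclear and lysosomal markers and regulators, 8 were higher in Cre, with a median of 0.06 and a range from -0.34 to 0.41. At a minimum 10 times higher, which kept 13 genes, the median turned to -0.046. The transcription factor gene Ets2 differed by 0.41, the p53 cofactor gene Ing1 by 0.38, the chromatin gene Hmga2 by -0.34 and the chromatin remodeller gene Hells by 0.27. Lmnb1, whose loss marks senescent nuclei, was at 10.12 in Cre and 10.23 in GFP, and Glb1, the source of senescence-associated beta-galactosidase, at 10.71 and 10.59, both named after their values were seen. The secreted factors often measured in senescent cultures differed far more. Of 39 such genes listed, 30 were measured, and Il6, Il1a and Il1b were among those absent from the deposited data. Of the 30 measured genes, 21 were higher and 9 lower in Cre. Of these, 11 lay 2-fold or more above GFP and 0 lay 2-fold below, the median being 0.43. In front were Mmp3 at 9.63-fold, Cxcl1 at 7.62-fold, Cxcl5 at 7.17-fold and Ccl2 at 4.46-fold. In the other direction, the binding protein genes Igfbp2 and Igfbp5 and the protease gene Plau were 1.85-fold, 1.77-fold and 1.43-fold higher in GFP, named after their values were seen. Mmp3, Cxcl1, Cxcl5 and Ccl2 are also inflammatory genes. The list was drawn up with the inflammatory genes of these libraries known to be higher, so it is not independent evidence. The secreted factor Gdf15, which p53 also induces, differed by -0.05 and was named after its value was seen.

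**Figure D4:**
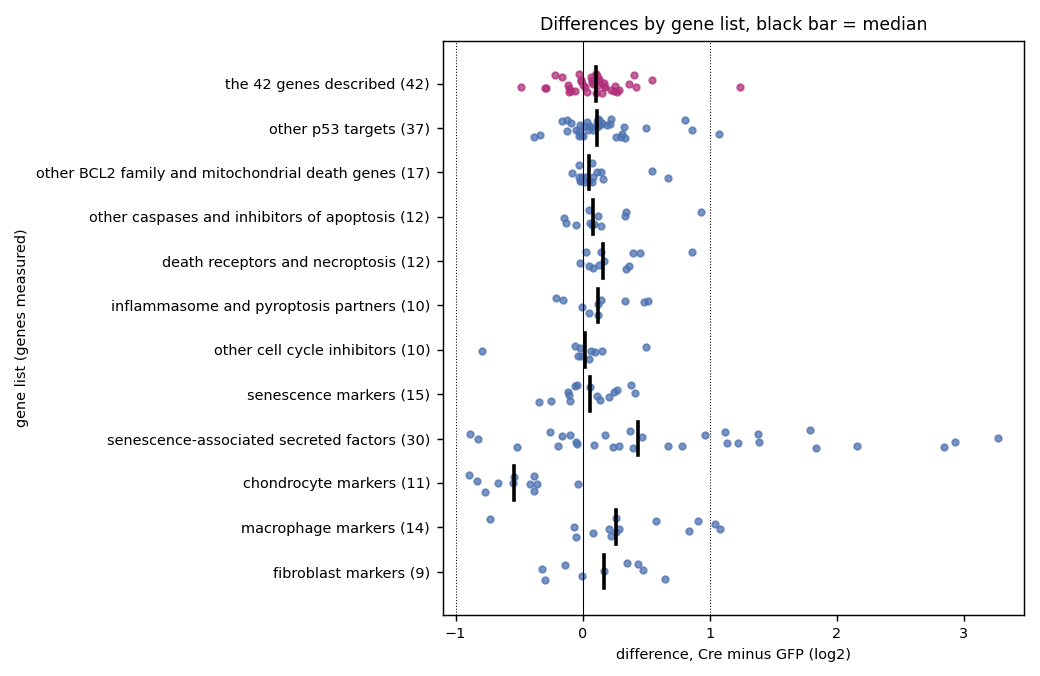
Difference of each measured gene (Cre minus GFP, log2) for the 42 genes described (magenta) and for the other lists (blue), with the median of each list as a black bar and dotted lines at 2-fold, 1 library per group. The 42 genes centre on a median of 0.11, whereas the secreted factors reach 3.27 and all 11 chondrocyte markers lie below 0.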

How the data were processed

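Total RNA of 2 libraries, 1 transduced with Cre adenovirus and 1 with GFP adenovirus, was made into libraries with Illumina TruSeq v2 mRNA reagents, according to the labels. Tools listed in the submitters' processing notes are TopHat2 2.0.6, HTSeq and bcl2fastq 1.8.4, with build mm10. The annotation, strand setting, treatment of multiple alignments and transform were not stated there. The authors deposited log2 values of normalized counts for 13138 genes, with 1 column per library. The heading of their difference column, GFP minus Cre, points to a regularized log. The values hold no depth, so no counting interval can be given. If they are regularized logs, low counts are shrunk and fold changes of rare genes understated.

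Differences were computed as Cre minus GFP with pandas 2.3.3 and numpy 2.4.6 for 12809 genes with a linear mean of at least 50, and counted at 2-fold. The code for the comparison with the 500 genes nearest in level was run on simulated data with normal noise and large shifts. That run checks the code only and does not test the comparison on these data. Levels between genes were divided by union exon length from GENCODE M21 (GRCm38), matched by symbol and chromosome for all 42 genes. Exons of 11 of the 42 overlap another gene, and the kit does not mark strand. Every listed gene is named, and up to 4 genes with the widest difference from each of 11 other lists; genes named besides these are marked in the text. The members and lists were chosen with earlier results of these data known. With 1 library per group, no test was run. Alternatives were no minimum, a minimum 10 times higher, other scalings, 1.5-fold, means for medians and p53 targets across classes.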

Additional observations from a re-analysis of the deposited data

How the results depend on the processing

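The counts of 1 gene at least 2-fold higher and 0 lower held at a minimum 10 times higher, which kept 33 of the 42 genes, and at 1.5-fold. All 42 genes pass the minimum, so leaving it out could not change their counts or medians. Both scalings also gave the same counts. They moved differences by only 0.00041 and 0.0077, too little to alter counts with Casp4 at 1.24 and Bid, the next highest, at 0.54. The median over the 42 genes and the 6 class medians stayed within 0.1 (log2) under these settings, apart from the caspases and their regulators, whose mean was 0.28 in place of a median of 0.11. Within that margin, the median of the cell cycle inhibitors was 0.012 at the higher minimum. Scaling to equal totals moved every difference by 0.0077 and turned the sign of Ccng1. Among 165 alternative values for the other lists, 12 moved. Of these, 10 were counts that changed from 2-fold to 1.5-fold: chondrocyte markers lower went from 0 to 4, secreted factors lower from 0 to 2, macrophage markers higher from 2 to 4 and lower from 0 to 1, and other p53 targets higher from 1 to 3. The cell cycle list had 1 lower in place of 0, and the other BCL2, caspase, death receptor and fibroblast lists each had 1 higher in place of 0. The senescence markers turned to a median of -0.046 over 13 genes at the higher minimum, and the mean of the secreted factors was 0.75. The pseudocount alternative was not run, since the table holds log2 values. No paired analysis was possible because there is 1 library in each group. Depth is unknown, so what it limits could not be measured.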
